A study of Mus musculus with 7 samples.

Results

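The small heat shock proteins and the BAG cochaperones were examined in the cervical spinal cord as 10 genes given by symbol, 6 of the first family (Hspb1, Cryab, Hspb8, Hspb6, Hspb2 and Hspb3) and 4 of the second (Bag3, Bag1, Bag2 and Bag5), of 55487 genes in the count table. All 10 symbols were found in the table. The cords came from 8-week-old Neat1-KO; hSOD1G93A mice (n = 4, replicates 1 to 4) and Neat1-WT; hSOD1G93A mice (n = 3, replicates 2 to 4). Both genotypes carried the hSOD1G93A transgene, a mutant human superoxide dismutase found in familial ALS, so each comparison is of Neat1 loss on the transgenic background and no mouse without the transgene was sequenced. Neat1 encodes a long non-coding RNA of nuclear paraspeckles. The hSOD1G93A line was hemizygous, with a mixed background from B6/SJLF1 breeders. The comparison asks whether the 2 families differ in level when Neat1 is lost.

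Small heat shock proteins share an alpha-crystallin domain and hold unfolding proteins in a soluble state without using ATP. BAG proteins bind the ATPase domain of HSP70 through their BAG domain and help to release its clients. Bag3 joins both families, since it binds Hspb8 and Hsp70 and routes misfolded clients to autophagy, while Bag1 links HSP70 to the proteasome. In the cord, Cryab is best known in oligodendrocytes and Hspb1 in motor neurons and sensory neurons.

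RNA of these mice gave 19661878 to 26031517 counts per library. Neat1 ranged from 4.04 to 5.52 CPM (read counts scaled to the TMM-adjusted library total) in Neat1-KO libraries and from 80.5 to 118 CPM in Neat1-WT libraries (log2 fold change −4.25, SE 0.15, edgeR adjusted p = 1.52e-08), as the genotype labels have it. Spinal cord markers were present in every library, with summed oligodendrocyte markers from 34010 to 43550 CPM and summed motor neuron markers from 277.8 to 428.1 CPM. Neat1-WT replicate 4 stood apart in skeletal muscle markers, whose sum was 17.69 CPM there and 2.288 to 3.081 CPM in the other 6 libraries. That library was also the highest in summed oligodendrocyte (43550 CPM), astrocyte (6168 CPM) and endothelial markers (178.8 CPM). The same held for vascular smooth muscle (182.8 CPM), Schwann cell (1255 CPM) and meningeal markers (193.3 CPM). It was not the highest in microglia, neuron, motor neuron or blood markers.

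Promoters are shown for Hspb1, Hspb8 and Bag3, and for Hspb3, whose promoter also holds a motif match. Hspb6 holds a match as well, in a promoter that is not printed here. Each is the 250 bases before the transcription start in RefSeq on GRCm38.p6, written 5′ to 3′ on the gene's strand. Capitals mark matches to GAANNTTC or TTCNNGAA, the 2 ways in which neighbouring repeats of the heat shock element can meet; each motif is its own reverse complement, so both strands were read. The promoters lie at chr5:135887669-135887918 (Hspb1, plus strand), chr5:116422865-116423114 (Hspb8, minus strand), chr7:128523333-128523582 (Bag3, plus strand) and chr13:113663677-113663926 (Hspb3, minus strand).
Hspb1: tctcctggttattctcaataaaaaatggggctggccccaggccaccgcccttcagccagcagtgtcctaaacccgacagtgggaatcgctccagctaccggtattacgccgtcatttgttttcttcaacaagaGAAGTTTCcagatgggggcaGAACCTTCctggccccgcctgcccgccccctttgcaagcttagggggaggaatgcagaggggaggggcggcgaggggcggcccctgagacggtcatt
Hspb8: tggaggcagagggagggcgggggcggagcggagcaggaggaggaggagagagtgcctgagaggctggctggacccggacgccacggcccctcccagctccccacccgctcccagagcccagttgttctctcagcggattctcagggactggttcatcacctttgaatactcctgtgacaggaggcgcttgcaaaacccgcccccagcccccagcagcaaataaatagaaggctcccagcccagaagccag
Bag3: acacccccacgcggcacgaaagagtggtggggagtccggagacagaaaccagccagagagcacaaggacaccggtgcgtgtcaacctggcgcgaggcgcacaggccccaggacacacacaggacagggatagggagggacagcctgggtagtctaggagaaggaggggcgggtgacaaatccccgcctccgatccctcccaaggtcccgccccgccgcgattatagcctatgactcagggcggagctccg
Hspb3: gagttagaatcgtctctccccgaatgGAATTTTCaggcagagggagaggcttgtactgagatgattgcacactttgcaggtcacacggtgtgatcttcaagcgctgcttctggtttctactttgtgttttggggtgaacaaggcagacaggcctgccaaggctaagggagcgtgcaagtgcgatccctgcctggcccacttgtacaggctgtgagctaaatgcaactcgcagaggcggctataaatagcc

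Of the 10 members, 8 had promoter entries, 10 entries in all, and Cryab and Hspb2 had none. Hspb1 held 2 matches, which began 117 and 97 bases before the start. Hspb3 held 1 match, 224 bases before its start, and Hspb6 held 1 match 120 bases before the second of its 2 starts. No match was in the windows of Hspb8, Bag3, Bag1, Bag2 and Bag5. Across 32851 mouse promoters of the same length, 12.8% held at least 1 match, 6.69% held GAANNTTC and 7.17% held TTCNNGAA. A match of these letters is a description of the sequence.

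Per kilobase of exon, the level of the members in the cord spanned from 0.2007 to 180.2 CPM per kb (mean of 7 libraries). Cryab, the alpha B-crystallin chain, was the highest at 180.2 ± 16.7 CPM per kb (SD, n = 7), above 99.1% of the genes tested. It made up 69.3% to 73.4% of the summed level per kb of the 6 small heat shock proteins. Bag1 came next at 96.9 ± 10.95 CPM per kb and made up 68.8% to 74.8% of the level of the 4 BAG genes. Hspb1 (35.8 ± 9.29 CPM per kb) and Hspb8 (30.3 ± 2.62 CPM per kb) followed, and their 7-library ranges overlapped. Bag3 (18.8 ± 1.12 CPM per kb) and Bag5 (16.0 ± 1.20 CPM per kb) overlapped too. All other neighbours in the order had ranges that did not overlap on this length. With the longest transcript as length, Bag5 came to 18.8 CPM per kb, the value of Bag3, and Bag2 (5.48) and Hspb6 (5.62) stood close together, so these orders rest on the length used. Below them stood Hspb6 at 4.84 ± 0.562 CPM per kb, Bag2 at 3.33 ± 0.411 CPM per kb, and Hspb2 at 1.01 ± 0.280 CPM per kb. Hspb3 was the lowest at 0.201 ± 0.136 CPM per kb, above 3.39% of the genes tested.

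**Figure D1:**
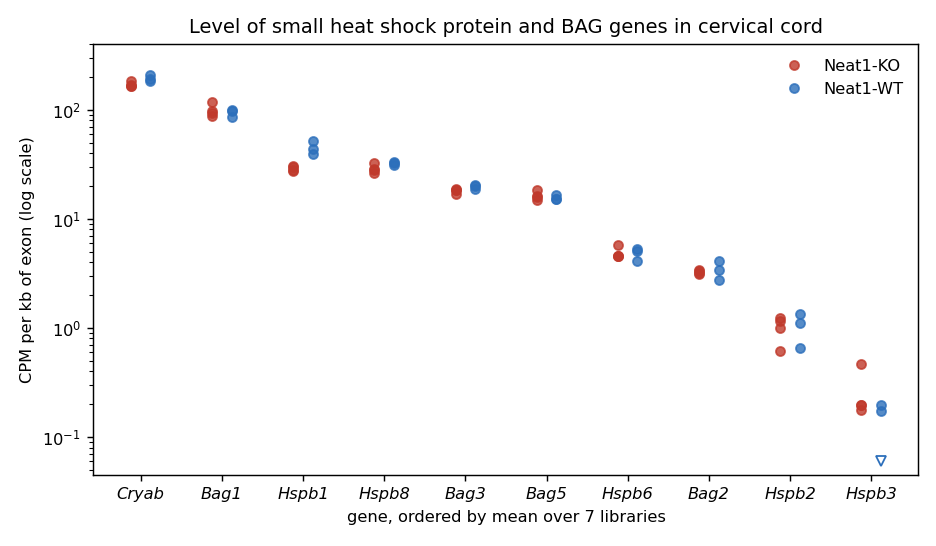
Level of the 10 genes in CPM per kb of exon on a log axis, 1 point per library, in Neat1-KO (n = 4, red) and Neat1-WT (n = 3, blue). The genes run from Cryab (mean 180.2) to Hspb3 (mean 0.2007), and the open triangle at the foot stands for the 1 Neat1-WT library in which Hspb3 is listed at 0.

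Among the members tested, Hspb1 fell with Neat1 loss, and no other member passed the threshold of an adjusted p under 0.1 with a log2 fold change over 0.58 in size. Of 10 members, 9 passed the filter on low counts, of which 6 were lower and 3 higher in Neat1-KO, with a median log2 fold change of −0.072 against 0.0062 over all 18449 genes tested. The 1 member called stands beside 6 genes called over the table, or 0.0325% of the genes tested. At an unadjusted p under 0.05 there were 2 members, Hspb1 and Cryab, against 4.64% of genes tested. In 3 members, Hspb1, Cryab and Bag3, the Neat1-KO libraries all lay below the lowest Neat1-WT library, against 2.57% of genes tested. The 5 tested small heat shock proteins had a median log2 fold change of −0.16, and the 4 BAG genes one of −0.0091.

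Hspb1 (ENSMUSG00000004951, chr5:135887919-135889563, plus strand) encodes HSP25, the mouse form of HSP27. It stood at 28.7, 30.8, 31.6 and 28.3 CPM across Neat1-KO replicates 1 to 4 and, across Neat1-WT replicates 2 to 4, at 45.3, 53.0 and 40.7 CPM. The highest Neat1-KO library was below the lowest Neat1-WT library, and the groups did not overlap under any of the 4 scalings. Neat1-KO averaged 29.9 ± 1.62 CPM (SD, n = 4) and Neat1-WT averaged 46.3 ± 6.24 CPM (SD, n = 3), so the mean was 35.5% lower in Neat1-KO. The log2 fold change was −0.63 (SE 0.098, 95% interval −0.85 to −0.42), with an edgeR adjusted p of 0.075. The exact two-sided permutation p was 0.0286, the smallest that the 35 assignments of 7 libraries to 4 and 3 allow. The call was lost when replicate 2 or 4 of Neat1-KO was left out (edgeR adjusted p = 0.176 and 0.311), and when replicate 2 or 3 of Neat1-WT was (edgeR adjusted p = 0.405 and 0.663). Over the 7 fits that each left out 1 library, the log2 fold change ran from −0.72 to −0.53. Neat1-WT replicate 4, the library with raised muscle markers, had the lowest Hspb1 of its genotype. Without that library, the log2 fold change was −0.72 with an edgeR adjusted p of 0.0194.

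2 annotated genes on chromosome 13 hold near-identical copies of Hspb1 sequence. Hsp25-ps1, a processed pseudogene at chr13:45078498-45079127, matched 630 bases of Hspb1 at 99.4% identity, or 61.1% of its exons. Gm9817, annotated as protein-coding at chr13:45078692-45081222, matched 493 bases at 99.8%. The spans of these genes overlap on opposite strands (Hsp25-ps1 minus, Gm9817 plus), so they are not separate places in the genome. Reads that match Hspb1 and this stretch of chromosome 13 equally were not counted as uniquely mapped. Part of the Hspb1 signal may therefore be missing in all libraries. The copies held 0.651% and 0.845% of the Hspb1 counts, and with them added to Hspb1, a step chosen after seeing the data, the log2 fold change was −0.63 with an edgeR adjusted p of 0.0566.

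Cryab (ENSMUSG00000032060, chr9:50751325-50756636, plus strand) stood at 242, 269, 243 and 248 CPM across Neat1-KO replicates 1 to 4 and, across Neat1-WT replicates 2 to 4, at 271, 309 and 284 CPM. Its mean was 13.1% lower in Neat1-KO, and the groups were parted by 1.07% between Neat1-KO replicate 2 and Neat1-WT replicate 2. The log2 fold change was −0.20 (SE 0.0707, 95% interval −0.36 to −0.050), with an edgeR p of 0.0133 and an adjusted p of 0.992, which did not pass. The exact two-sided permutation p was 0.0571. With the libraries scaled by total count in place of TMM, the groups overlapped. Without Neat1-WT replicate 4 the log2 fold change was −0.215 (edgeR adjusted p = 0.932). Cryab is also a muscle gene, and the 6 skeletal muscle markers, of which 2 passed the filter and Myh4 was at 0 in some libraries, summed to 2.288 to 2.691 CPM in Neat1-KO and 2.852 to 17.69 CPM in Neat1-WT. Their part in the Cryab level was not tested.

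Hspb8, the partner of Bag3 in chaperone-assisted autophagy, stood at 51.2, 56.0, 63.1 and 54.2 CPM across Neat1-KO replicates 1 to 4 and, across Neat1-WT replicates 2 to 4, at 62.9, 64.2 and 61.2 CPM. Neat1-KO replicate 3 lay within the Neat1-WT range and the other 3 libraries below it. The log2 fold change was −0.16 (SE 0.0845, 95% interval −0.34 to 0.022, edgeR adjusted p = 0.992). Neat1-WT libraries varied little here, with a coefficient of variation of 2.37% against 8.98% in Neat1-KO.

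Hspb6, known as HSP20, stood at 10.4, 13.3, 10.5 and 10.5 CPM across Neat1-KO replicates 1 to 4 and, across Neat1-WT replicates 2 to 4, at 9.51, 12.1 and 11.7 CPM. Its groups overlapped, with a log2 fold change of 0.0047 (SE 0.137, 95% interval −0.29 to 0.30, edgeR adjusted p = 0.999). Hspb6 exons share 122 bases, or 5.3% of their length, with Proser3 on the opposite strand.

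Hspb2, which lies head to head with Cryab on the opposite strand, held between 10 and 24 counts per library. It stood at 0.514, 0.968, 1.02 and 0.839 CPM in Neat1-KO and at 0.543, 1.12 and 0.918 CPM in Neat1-WT (log2 fold change −0.030, SE 0.37, 95% interval −0.83 to 0.77, edgeR adjusted p = 0.997). The interval allows a difference beyond the threshold of 0.58 in both directions. Exons of Hspb2 and Cryab share 252 bases, 30.2% of Hspb2 exons and 17.0% of Cryab exons, and the strand setting of the counting is not given in the sources used here. Whether reads in the shared bases were given to 1 gene, to the other or to neither is therefore not known.

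Hspb3, a small heat shock protein best known in muscle, had counts of 3, 9, 3 and 4 across Neat1-KO replicates 1 to 4, and of 3, 0 and 3 across Neat1-WT replicates 2 to 4. All Neat1-WT libraries were at or under the floor of 3 counts per library, and the gene was left out of the test by the filter. Whether it differs was not detectable at this depth.

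**Figure D2:**
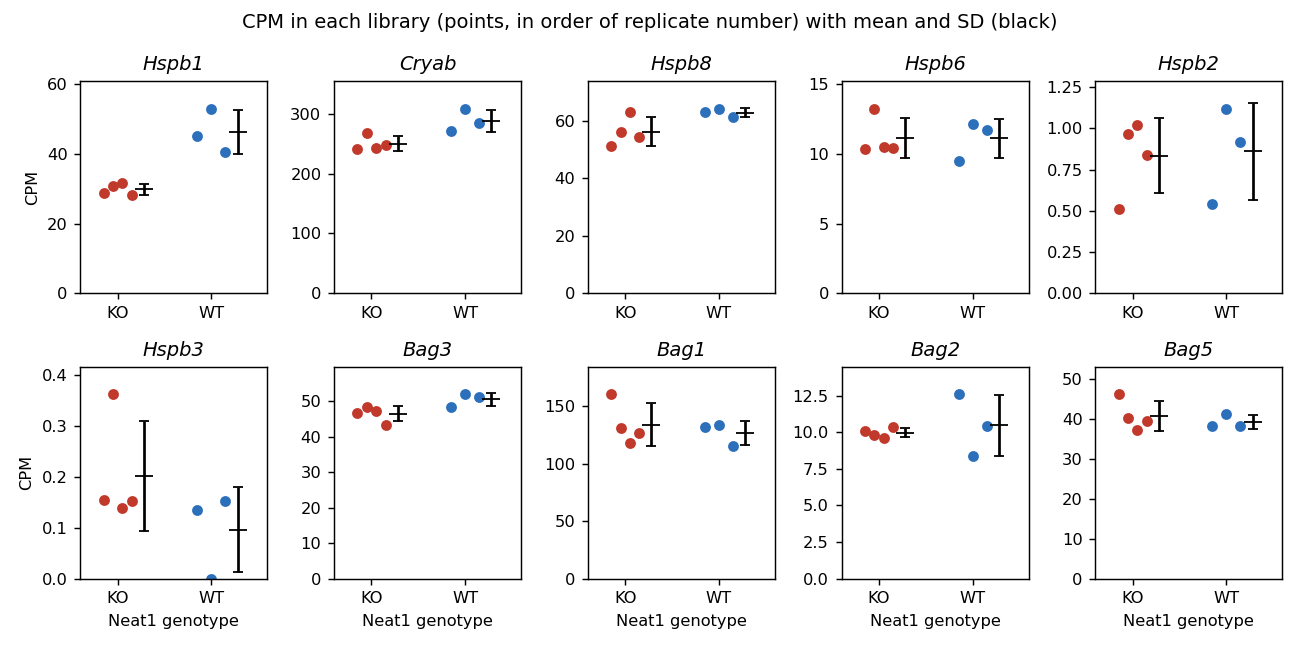
CPM of each of the 10 genes by library, with the mean and SD of each Neat1 genotype in black (Neat1-KO, n = 4; Neat1-WT, n = 3). Each panel has its own linear axis that starts at 0, and a wide gap between the genotypes is seen for Hspb1 (28.3 to 31.6 against 40.7 to 53.0 CPM), while Cryab and Bag3 are parted by narrow gaps.

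Bag3, the autophagy-linked cochaperone, stood at 46.8, 48.3, 47.3 and 43.3 CPM across Neat1-KO replicates 1 to 4 and, across Neat1-WT replicates 2 to 4, at 48.4, 51.9 and 51.2 CPM. The groups were parted by 0.11% and overlapped when scaled by total count. The log2 fold change was −0.12 (SE 0.077, 95% interval −0.29 to 0.046, edgeR adjusted p = 0.992), and the exact two-sided permutation p was 0.0571.

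Bag1, the most abundant of the 4, stood at 160.1, 131, 118 and 126 CPM across Neat1-KO replicates 1 to 4 and, across Neat1-WT replicates 2 to 4, at 132, 133 and 115 CPM. Neat1-KO replicate 1 was the highest of all 7 libraries for both Bag1 and Bag5, and for both genes the groups overlapped. The log2 fold change of Bag1 was 0.078 (SE 0.102, 95% interval −0.14 to 0.30, edgeR adjusted p = 0.992). Bag5, which acts as a nucleotide exchange factor of HSP70 and holds several BAG domains, stood at 46.2, 40.2, 37.3 and 39.6 CPM in Neat1-KO and at 38.3, 41.4 and 38.3 CPM in Neat1-WT. Its log2 fold change was 0.054 (SE 0.090, 95% interval −0.14 to 0.25, edgeR adjusted p = 0.992).

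Bag2, which inhibits the ubiquitin ligase CHIP, stood at 10.1, 9.84, 9.60 and 10.4 CPM in Neat1-KO and at 12.6, 8.40 and 10.5 CPM in Neat1-WT. The Neat1-KO libraries lay within the Neat1-WT range (log2 fold change −0.072, SE 0.142, 95% interval −0.38 to 0.24, edgeR adjusted p = 0.993). For the 4 BAG genes, the 95% intervals excluded a log2 fold change of 0.58 in size in either direction.

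**Figure D3:**
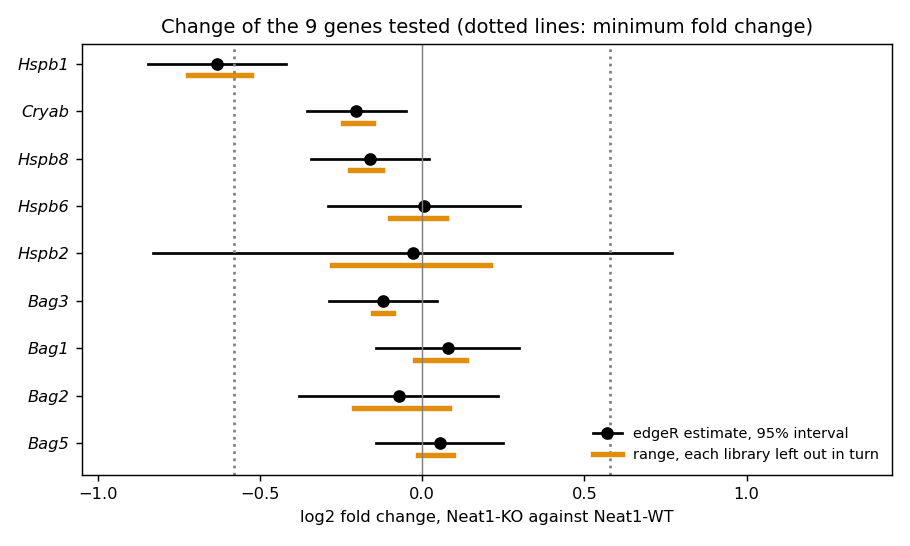
Log2 fold change of Neat1-KO against Neat1-WT for the 9 genes tested, with the edgeR estimate and its 95% interval (black) and the range of the estimate with each library left out in turn (orange). The Hspb1 estimate of −0.63 lies beyond the dotted line of the minimum change, the interval of Cryab does not reach 0, and those of the other 7 genes cover 0.

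Balance within a family was read as ratios in each library, which need no scaling, over 3 ratios. They are ratios of counts without correction for gene length, so they compare libraries and not the levels of different genes. Hspb1 per Cryab ranged from 0.114 to 0.131 in Neat1-KO and from 0.143 to 0.172 in Neat1-WT. The difference of mean log2 ratios was −0.42 (exact two-sided permutation p = 0.0286, the smallest possible), so Hspb1 was lower relative to Cryab. This ratio rests on the same Hspb1 values as above and is not separate support for its fall. Bag3 per Bag1, the balance of autophagy and proteasome cochaperones, ranged from 0.292 to 0.401 in Neat1-KO and from 0.367 to 0.446 in Neat1-WT (difference −0.19, exact two-sided permutation p = 0.257). Hspb2 per Cryab differed by 0.175 on the log2 scale (exact two-sided permutation p = 0.543). The summed CPM of the 6 small heat shock proteins was 333.0, 369.9, 348.9 and 342.2 in Neat1-KO and 389.8, 439.4 and 399.0 in Neat1-WT, a sum led by Cryab, while the BAG sum was 231.0 ± 22.6 CPM (SD, n = 4) and 226.9 ± 10.7 CPM (SD, n = 3).

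Marker levels of the main cell types were read beside these members. In whole tissue, fewer cells of a type and less RNA per cell cannot be told apart. The summed CPM of 6 motor neuron markers was 277.8 to 338.4 in Neat1-KO and 359.7 to 428.1 in Neat1-WT, with 6 of 6 lower in Neat1-KO. Of them 0 were called by edgeR, and 3 had an unadjusted p under 0.05, against 4.64% of genes tested. Taken alone, each of the 6 overlapped between genotypes. Relative to the summed motor neuron marker counts, Hspb1 counts were 8.56% to 11.1% in Neat1-KO and 10.6% to 14.7% in Neat1-WT. These ranges overlapped between 10.6% and 11.1%, with both ends lower in Neat1-KO. Relative to 5 endothelial markers, Hspb1 was 18.6% to 19.7% and 22.8% to 32.2%, which did not overlap. No other marker list was set against Hspb1. Oligodendrocyte markers summed to 34010 to 36880 CPM in Neat1-KO and 35560 to 43550 CPM in Neat1-WT, with 7 of 8 lower and 0 called by edgeR. The top of the Neat1-WT range was replicate 4, while replicates 2 and 3 stood at 35560 and 39030 CPM. There 2 had an unadjusted p under 0.05, against 4.64% of genes tested, Mobp (edgeR adjusted p = 0.986) and Cldn11 (edgeR adjusted p = 0.983). In the same 2, every Neat1-KO library lay below every Neat1-WT library, against 2.57% of genes tested. They are named here after their values were seen. Cryab relative to the 8 oligodendrocyte markers was 0.657% to 0.751% against 0.653% to 0.791%, which overlapped. Bag3 relative to the same markers was 0.127% to 0.135% against 0.118% to 0.136%. These shares were computed after seeing the data, and the part of cell makeup in the results was not tested.

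**Figure D4:**
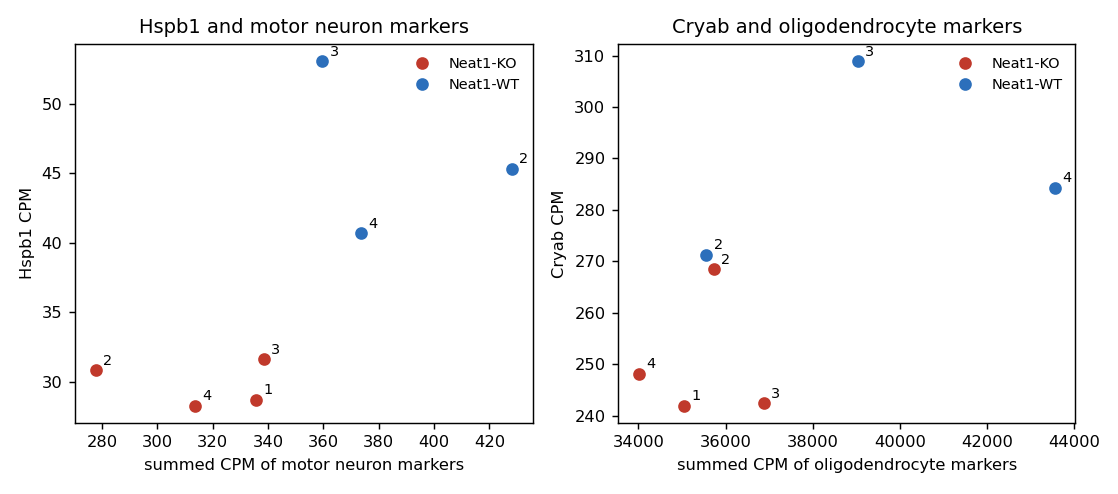
Hspb1 CPM against the summed CPM of 6 motor neuron markers (left) and Cryab CPM against that of 8 oligodendrocyte markers (right), 1 point per library with its replicate number; axes do not start at 0. Neat1-KO libraries (red) lie below Neat1-WT libraries (blue) in Hspb1 and in the motor neuron sum, whereas the oligodendrocyte sums overlap.

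Other genes of the same machinery were read from 4 lists. Of the 9 HSP70 partners, all 9 were tested and 8 were lower, with 1 called, against 0.0325% of genes tested, and 3 at an unadjusted p under 0.05, against 4.64%. The 3 were Hspa1b, Hspa1a and Hsph1 (edgeR adjusted p = 0.912 for Hsph1, which is named after its value was seen). The gene called was Hspa1b, a stress-induced HSP70 (3.19 to 5.68 CPM in Neat1-KO and 9.28 to 13.6 CPM in Neat1-WT, log2 fold change −1.25, SE 0.20, edgeR adjusted p = 0.0888). Its neighbour Hspa1a ranged from 6.14 to 7.98 CPM and from 9.23 to 11.5 CPM (log2 fold change −0.65, edgeR adjusted p = 0.485) and did not pass. Hspa8, the constitutive HSC70 and the highest per kb at 434 CPM per kb, had a log2 fold change of −0.0081, and Stub1, which encodes the ligase CHIP and came next at 49.3 CPM per kb, had one of 0.061. Of the 7 other family genes, 3 passed the filter, Bag6, Bag4 and Hspb11, and 0 were called. In Bag4, every Neat1-KO library lay below every Neat1-WT library (41.5 to 43.3 CPM against 44.4 to 46.3 CPM, edgeR adjusted p = 0.992). The same held for 2.57% of genes tested. For chaperone-assisted autophagy and transport, all 16 were tested, 4 lower and 12 higher, with 0 called by edgeR and 0 at an unadjusted p under 0.05. The highest there per kb were Ywhag, a 14-3-3 protein, and Gabarapl1, an autophagosome protein, at 247 and 245 CPM per kb. Of the 11 heat shock and kinase regulators, 5 were lower and 6 higher, with 0 called by edgeR and 0 at an unadjusted p under 0.05. Eif2ak1, a kinase of the integrated stress response, was the 1 without overlap (91.3 to 95.6 CPM against 96.4 to 101.1 CPM, edgeR adjusted p = 0.992). All its Neat1-KO libraries were the lower ones, as in 2.57% of genes tested. Prkaca, the catalytic subunit of protein kinase A, and Hsbp1, a binding protein of heat shock factor, were the highest per kb of this list.

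The genes whose log2 CPM followed Hspb1 most closely over the 7 libraries, among 12833 genes, were Rnf144b (Pearson r = 0.986), Sbds (0.975), 1810014B01Rik (0.974), Gm3608 (0.973) and Shc3 (0.967). These values are descriptions with no test, over libraries that share the genotype difference of Hspb1 itself. Shc3, a neuronal adaptor protein, stood at 36.9 CPM in Neat1-KO and 47.8 CPM in Neat1-WT on average (log2 fold change −0.38, edgeR adjusted p = 0.485).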

How the data were processed

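The authors made directional poly(A) libraries from cervical cord RNA, trimmed the paired reads with Trimmomatic 0.38, aligned them with HISAT2 2.1.0 to mm10 and counted uniquely mapped reads with featureCounts 1.6.3 (names and versions per the submitters' processing notes). They deposited raw counts per Ensembl gene, not normalized. The annotation release and strand setting are not given in the sources used here. Genotype and replicate came from the sample labels. Each library came from a separate mouse. Symbols and positions came from GENCODE M21, which names 55227 of 55487 genes, and promoters from RefSeq.

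Counts were fitted over the whole table in edgeR 4.0.16 (R 4.3.3) with filterByExpr, TMM and the quasi-likelihood F test, with Benjamini-Hochberg adjustment over 18449 genes. Calls needed an adjusted p below 0.1 together with a log2 fold change above 0.58 in size. The intervals are 95% intervals of the fit. Single values and ratios had exact permutation tests over 35 assignments. CPM used TMM-scaled totals, and CPM per kb the union of exons. The floor was 3 counts and covers counting error only. Copies were searched by BLAST 2.17.0 (at least 90% identity over 50% of the shorter). Named genes were the members, Neat1, and from each of the 4 pathway lists (not the marker lists) those called, those without overlap between genotypes and the 2 highest per kb, plus the 5 genes most like Hspb1 of those with at least 5 CPM. The members and lists were chosen with earlier results of these data known. The tests were tested on simulated data. Alternatives were other scalings, filters and thresholds, DESeq2 1.42.0, limma-voom (limma 3.58.1), robust dispersion, a replicate block, an Xist covariate, another length and each library left out.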

Additional observations from a re-analysis of the deposited data

Results flagged for a closer look

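Hspb6 in the Neat1-KO libraries had 1 library far from the other 3: replicate 2 stood at 13.3 CPM and the others at 10.4 to 10.5 CPM, a gap of 0.962 of the range, above Dixon's 95% critical value. Hspb3 had the same pattern, with 0.363 CPM in Neat1-KO replicate 2 and 0.139 to 0.154 CPM in the others. That gap was 0.933 of the range in CPM. The counts were 9 against 3 to 4, near the floor of 3. Of 13 groups of 4 libraries examined, chance gives about 0.65 such gaps.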

How the results depend on the processing

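The fall of Hspb1 was called under both other scalings, both other filters, DESeq2, limma-voom, robust dispersion and the replicate block (log2 fold change −0.61, edgeR adjusted p = 0.0342). Under the block, Neat1-KO replicate 1 had no Neat1-WT library of its number, so the genotype difference rested on the other libraries. The fall was not called at an adjusted p under 0.05 (0 members) or with Xist as a covariate (−0.73, edgeR adjusted p = 0.19, 0 members). Xist had 0 to 4 counts in every library, near the floor of 3, so the Xist fit was not an adjustment for sex. With each library left out, Hspb1 ranged from −0.721 to −0.527, and 0 to 1 members were called. Genes called over the table numbered 6, and 124 with no filter, 27 with DESeq2, 39 with the replicate block and 3 to 31 with each library left out (31 without Neat1-KO replicate 1, 11 without Neat1-WT replicate 4, 3 without Neat1-WT replicate 3). The cause was not tested.

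Cryab, Hspb8 and Bag3 kept their sign in all 16 alternatives and were called in none. Members that were not called changed sign: Hspb6 to −0.000688 with median-of-ratios factors, −0.000105 with DESeq2 and −0.115 with Xist (−0.0981 to 0.0719 with each library left out), Hspb2 to 0.166 with the replicate block (−0.279 to 0.209), Bag1 to −0.0168 with the block and −0.0309 with Xist (−0.0214 to 0.134), Bag2 to 0.0429 with Xist (−0.21 to 0.0819) and Bag5 to −0.0101 with the block and −0.0203 with Xist (−0.0128 to 0.0937). Same-numbered libraries of the genotypes had deviations correlated at −0.375, −0.368 and 0.0285, and differently numbered ones at −0.513 to 0.395. So few pairs cannot show whether the numbers pair the libraries.

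With the longest transcript as length, Cryab stood at 239, Hspb6 at 5.62, Bag2 at 5.48 and Bag5 at 18.8 CPM per kb. Under total-count scaling, chosen after seeing the data, 1 member in place of 3 had every Neat1-KO library below every Neat1-WT library. With each library left out, log2 Hspb1 per Cryab differed by −0.505 to −0.373, with exact permutation p of 0.0667 or 0.1, the smallest those designs allow, and Hspb2 per Cryab by −0.0832 to 0.377.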
